A study of Homo sapiens with 3 samples.

Results

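Several HES and HEY genes, and NRARP, are commonly used as a transcriptional read-out of Notch signaling, though not every family member is. HES, HEY and NRARP levels were examined in HCT116 cells, an established human colorectal cancer line, after knockdown of SMARCA4. SMARCA4, also called BRG1, drives nucleosome remodeling by SWI/SNF complexes with the energy of ATP. The group held 9 genes (HES1, HES2, HES4, HES6, HES7, HEY1, HEY2, HEYL and NRARP), chosen by name with earlier results of these data known, of the 43317 gene names with a non-control probe on the array. There were 14 probes for the 9 genes. Of these, 11 probes of 7 genes were well above background on all 3 arrays, while the probes of HES7 and HEY2 and 1 of the 2 probes of NRARP were not well above background on any array.

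Cells were transfected with siRNA against SMARCA4 by lipofection and compared with cells of the same line labelled NC. The 3 groups, SMARCA4-KD1, SMARCA4-KD2 and NC, each had 1 array of total RNA, so no spread between replicates could be measured, and each difference was described by its size and by the error that the extraction software gives a spot. This error leaves out the spread between cultures. The NC array lay on another slide and was scanned at another time than both knockdown arrays, so that slide, scan and treatment cannot be told apart. All knockdown values rest on the same NC array. In a bulk sample, fewer cells expressing a gene and less RNA per cell cannot be told apart.

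The labels do not state which of the siRNAs each knockdown array received. Because the titles name SMARCA4 and the treatment field names PRMT1, both genes were read first. The SMARCA4 probe (chr19:11172673-11172732, hg19) had a processed intensity of 14026 in NC against 3960 in SMARCA4-KD1 and 4129 in SMARCA4-KD2, which was 3.76-fold and 3.47-fold lower in the knockdowns once each array was scaled to its 75th percentile. The log2 fold change of PRMT1 was 0.27 and 0.37. SMARCA4 was thus the gene that was lower, as the titles say. All 6 colon epithelial carcinoma markers (EPCAM, KRT8, KRT18, KRT19, CDH1 and CLDN7) were well above background on each array, with a summed intensity of 374964 to 408648, and 1 of them, CLDN7, was at least 1.5-fold higher in both knockdowns (6536 in NC against 11962 and 10983). Its part in the members' differences was not tested. Of the other markers, 1 of 5 fibroblast, 3 of 4 blood cell and 2 of 4 endothelial genes were, with summed intensities of 363 to 491, 157 to 200 and 81.0 to 120. COL1A2, COL3A1, DCN, LUM, CD3E, PECAM1 and KDR were not well above background on any array.

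When a ligand on a neighbouring cell binds a Notch receptor, ADAM proteases and then gamma-secretase cut the receptor, and its intracellular domain enters the nucleus, where it joins the DNA-binding protein RBPJ and Mastermind coactivators. Several HES and HEY genes are direct targets of this complex. The family encodes basic helix-loop-helix (bHLH) repressors, of which the HES proteins recruit Groucho/TLE corepressors. In the intestine, HES1 is known for repressing ATOH1 and with it the secretory cell fates. NRARP encodes an ankyrin repeat protein that binds the Notch nuclear complex and limits its activity.

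Promoter sequences are shown because RBPJ is known to act through sites close to the start of some of these genes. The RefSeq table (GRCh38.p14) held a window of 250 bases before the transcription start for 8 of the 9 genes, HEY1 being the other one. The windows of HES1, HES4, HEYL and NRARP are printed 5′ to 3′ on the gene's strand, with each match to the RBPJ core TGGGAA in capitals (TTCCCA where the match lies on the opposite strand):
HES1, chr3:194135898-194136147, plus strand: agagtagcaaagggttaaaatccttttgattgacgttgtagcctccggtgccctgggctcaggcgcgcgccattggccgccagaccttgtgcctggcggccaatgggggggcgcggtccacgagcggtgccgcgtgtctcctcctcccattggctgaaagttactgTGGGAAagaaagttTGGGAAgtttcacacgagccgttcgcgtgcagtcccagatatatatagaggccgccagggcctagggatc
HES4, chr1:1000098-1000347, minus strand: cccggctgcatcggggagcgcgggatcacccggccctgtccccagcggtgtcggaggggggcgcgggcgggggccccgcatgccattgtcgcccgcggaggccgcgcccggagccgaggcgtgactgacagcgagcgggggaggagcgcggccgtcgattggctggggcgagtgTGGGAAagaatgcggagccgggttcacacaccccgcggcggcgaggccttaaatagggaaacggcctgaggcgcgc
HEYL, chr1:39639644-39639893, minus strand: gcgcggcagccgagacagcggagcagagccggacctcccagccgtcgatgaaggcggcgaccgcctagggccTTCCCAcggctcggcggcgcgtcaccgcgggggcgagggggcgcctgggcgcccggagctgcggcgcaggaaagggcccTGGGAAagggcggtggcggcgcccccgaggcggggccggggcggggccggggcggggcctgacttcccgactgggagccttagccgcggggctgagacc
NRARP, chr9:137302272-137302521, minus strand: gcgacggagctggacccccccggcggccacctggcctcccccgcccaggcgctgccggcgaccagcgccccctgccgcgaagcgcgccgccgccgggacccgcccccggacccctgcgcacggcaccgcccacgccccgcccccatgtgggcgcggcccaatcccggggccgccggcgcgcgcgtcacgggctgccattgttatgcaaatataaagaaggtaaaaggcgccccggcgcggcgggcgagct
The HES1 window held 2 cores, at -84 to -79 and -70 to -65 bases from the start, on the same strand. The HES4 window held 1 core, at -76 to -71. The HEYL window held 2 cores on opposite strands, at -178 to -173 and -99 to -94. HES1 and HES4 had in common the stretch tgTGGGAAagaa of 12 bases, which lay at -86 to -75 in HES1 and at -78 to -67 in HES4, and which 5 of the 35116 promoter windows of the table held (0.0142%). This stretch was picked after the sequences had been seen. It was counted on the gene's strand only, and the 5 windows include those of HES1 and HES4.

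HEY2 held 1 core at -213 to -208 on the opposite strand, and HES2, HES6, HES7 and NRARP held none. Searched on both strands, the core was present in 4 of the 8 windows, against 20.8% of all windows, and at least 2 copies were present in 2 of the 8, against 2.9%. Of the sites that HES and HEY proteins are known to bind, the N-box CACNAG was found 3 times in HES1 and 1 time in HES7 (32% of all windows held it), the class C site CACGCG 2 times in HES1 (9.72% of all windows) and the E-box CACGTG in none (6.34% of all windows). None of the matches in HES1 overlapped. The windows had a GC content of 59.2% to 79.6%, above the median of 58% over all windows. Only exact matches to each motif were searched, so that variant sites are not counted. These matches describe the letters of the windows, and binding was not measured in the data used here.

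**Figure D1:**
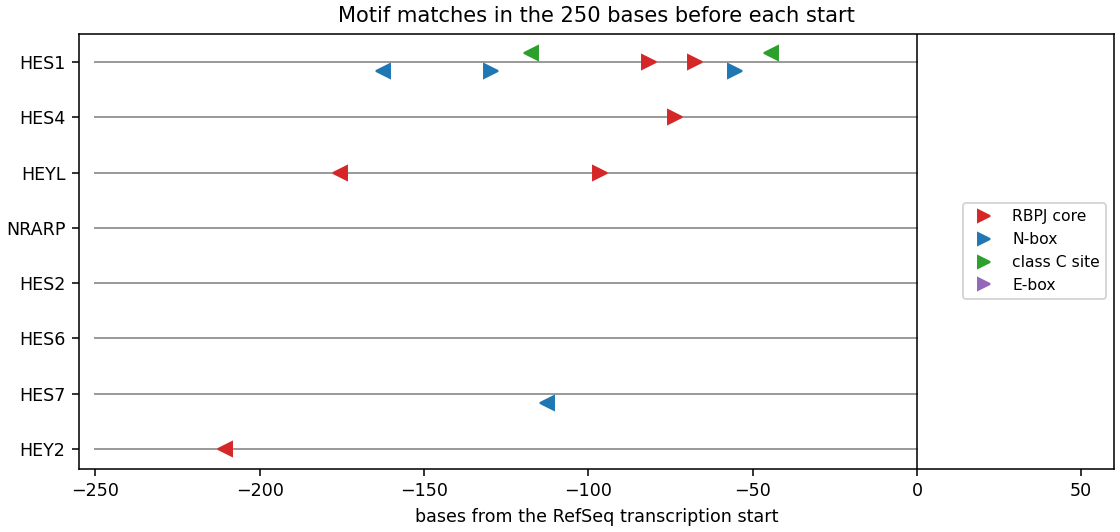
Motif matches in the 250 bases before the RefSeq start of each gene with a window (x axis, bases from the start; a triangle pointing right is on the gene's strand, one pointing left on the opposite strand). HES1 held 7 matches, all other windows 2 or fewer, and NRARP, HES2 and HES6 none.

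HES1 and HEY1 were lower in both knockdowns, HES4 and NRARP were higher in both, and HES6, HEYL and HES2 differed from NC by less than 1.5-fold. HES1, the best known Notch target of the intestinal epithelium, was read by 1 probe, at chr3:193854276-193854463 (hg19, plus strand). The probe has 60 bases but covers 188 bases of the genome, so that it crosses an intron, and it is shown because it reads spliced HES1 RNA:
HES1 probe: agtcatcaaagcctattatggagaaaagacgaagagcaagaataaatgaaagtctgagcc
HES1 had a processed intensity of 138.9 in NC, 90.7 in SMARCA4-KD1 and 79.8 in SMARCA4-KD2. It was lowest in SMARCA4-KD2 and highest in NC. Relative to NC, SMARCA4-KD1 had a log2 fold change of -0.70 ± 0.22 and SMARCA4-KD2 one of -0.83 ± 0.22 (error of the extraction software, 1 array each), or 1.63-fold and 1.78-fold lower.

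HEY1, a repressor best known from blood vessels and the heart, was also read by 1 probe. It read 137.3 in NC, 71.2 for SMARCA4-KD1 and 68.7 for SMARCA4-KD2, so that both knockdown arrays gave nearly the same value. Its log2 fold change was -1.03 ± 0.22 in either knockdown, a mean of 2.04-fold lower. Ordered by the mean log2 fold change of both knockdowns, HEY1 was 596th and HES1 1356th from the lowest of 22619 measured genes.

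Both probes were dim. Before background subtraction the spot of HES1 read 123, 111 and 168 in SMARCA4-KD1, SMARCA4-KD2 and NC, with a local background of 28, 27 and 23, and the spot of HEY1 read 107, 104 and 181, with a local background of 33, 31 and 22. The local background was thus higher on the knockdown arrays at both spots. The same held at the probes of all other members, such as HES4, with 38 and 35 on the knockdown arrays and 26 in NC. With normexp background correction of these raw values, the mean log2 fold change was -0.44 for HES1, which no longer passed 1.5-fold, and -0.70 for HEY1, which did. This correction also adds an offset of 50 to every value, which by itself shrinks the fold change of a probe as dim as these. The smaller values under normexp therefore do not show what the local background contributed.

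HES4, a close relative of HES1 that mice lack, was read by 1 probe. The probe (chr1:934345-934404, hg19, minus strand) gave 36855 in NC, 69254 for SMARCA4-KD1 and 69908 for SMARCA4-KD2, and no spot was saturated. Both knockdown arrays lay above NC, with nearly the same value. The log2 fold change was 0.82 ± 0.20 and 0.89 ± 0.20, or 1.77-fold and 1.85-fold higher.

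NRARP, the feedback inhibitor, had a measured probe at chr9:140194123-140194182 (hg19, minus strand), which gave 2851 in NC, 5463 for SMARCA4-KD1 and 4727 for SMARCA4-KD2. Both knockdown arrays again lay above NC. The log2 fold change was 0.85 ± 0.20 and 0.70 ± 0.20, or 1.81-fold and 1.62-fold higher. The other NRARP probe, 2116 bases away, read 3.89 in NC and 4.68 and 7.28 in the knockdowns and was not well above background on any array, so that 1 probe carries the NRARP result. HES4 was 880th and NRARP 1156th from the highest mean log2 fold change of the 22619 genes. Of the genes with an RBPJ core in the printed window, HES1 was lower, HES4 higher and HEYL within 1.5-fold. NRARP, whose window held none, was higher. A link between the cores and these differences was not tested.

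HES2, HEYL and HES6 were measured with smaller differences. HES2, a less studied repressor of the family, had a probe at chr1:6475737-6475796 (hg19, minus strand) that gave 653 in NC, 921 in SMARCA4-KD1 and 897 in SMARCA4-KD2, a log2 fold change of 0.41 ± 0.20 and 0.42 ± 0.20. Its second probe, designed to another transcript and 2484 bases away, gave 604, 580 and 534 in the same order, a log2 fold change of -0.15 and -0.21. The 2 probes of HES2 thus differed in direction, and the direction of HES2 depends on the probe taken. HEYL, the third HEY gene, gave 854, 1028 and 1007 in that order (chr1:40089841-40089900, hg19, minus strand), with a log2 fold change of 0.18 ± 0.20 and 0.20 ± 0.20, no larger than about 1 error.

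HES6, which is known to oppose HES1 and to promote neuronal differentiation, had 4 probes within 1203 bases, each of them above the background limit on the 3 arrays. The brightest (chr2:239146947-239147006, hg19, minus strand) gave 17353 in NC, 18369 in SMARCA4-KD1 and 16577 in SMARCA4-KD2, a log2 fold change of -0.0037 ± 0.20 and -0.10 ± 0.20. Over all 4 probes and both knockdowns the log2 fold change ran from -0.25 to 0.30. No HES6 probe reached 1.5-fold in either knockdown, and the probes differed in sign.

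HES7, an oscillating gene of the segmentation clock in the embryo, read 3.54 and 3.34 in the knockdowns and 12.01 in NC, and HEY2, known from heart and vessel development, read 3.40 and 3.29 in the knockdowns and 5.53 in NC. The lowest intensities well above background were 16.9 and 16.4 on the knockdown arrays and 17.7 on the NC array. Both genes were therefore below what the arrays could measure, and no fold change was formed. The same held for HES3 and HES5, the family members outside the 9 genes.

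**Figure D2:**
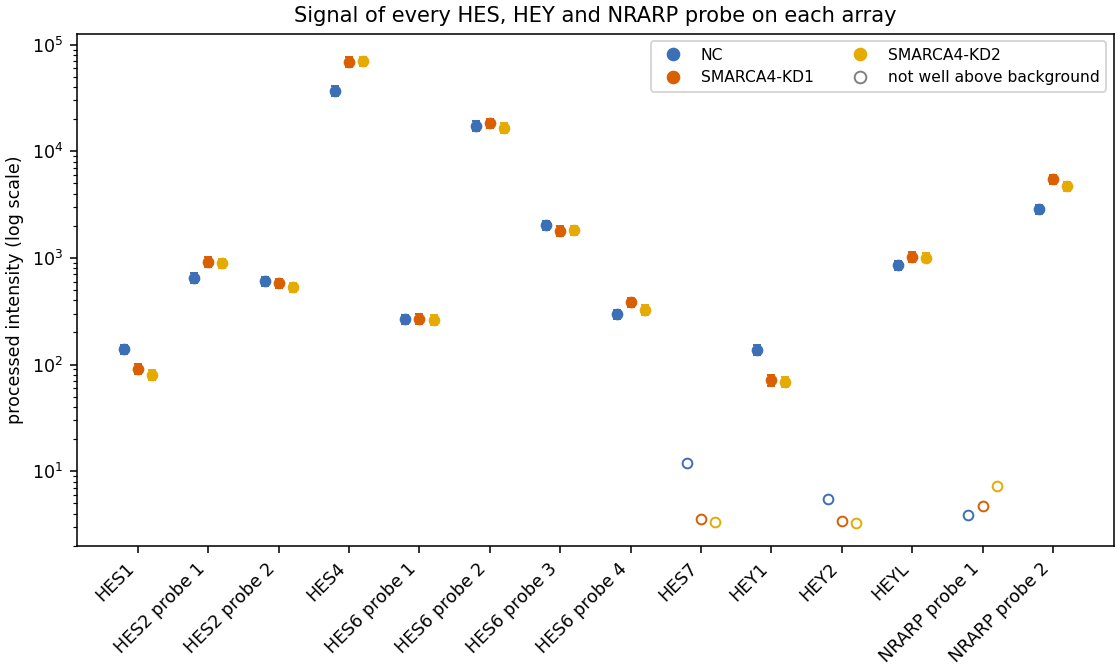
Processed intensity (y axis, log scale) of all 14 probes on the 3 arrays, with the extraction software's error of each spot as the bar. HES1 and HEY1 lie highest in NC, HES4 and NRARP probe 2 lowest in NC, and open circles (HES7, HEY2 and NRARP probe 1) were not well above background; levels of different probes cannot be compared.

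At 1.5-fold, 2 of the 7 measured genes (HES1 and HEY1) were lower and 2 (HES4 and NRARP) higher in SMARCA4-KD1, and the same genes were so in SMARCA4-KD2. Over all measured genes, 12.3% were lower and 11.2% higher in SMARCA4-KD1, and 9.74% were lower and 10.1% higher in SMARCA4-KD2. In both knockdowns together 8.03% of all genes were lower and 6.35% higher. With 7 genes, 1 gene is a large share of the group, and the counts are given as a description without a test. For the 7 genes, SMARCA4-KD1 gave a median log2 fold change of 0.18 and SMARCA4-KD2 one of 0.20, beside -0.0038 and 0.020 over all genes. The median size of the difference, regardless of sign, was 0.70 in both, beside 0.31 and 0.28 over all genes. The group did not lie to one side of NC: 3 genes were below 0 and 4 above 0 in either knockdown. Among these, HES6 and HEYL lay within about 1 error of NC, and the sign of HES2 depended on the probe.

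The knockdown arrays were also compared with each other, to see how far the values of the 7 genes depended on which array was read. None of the 7 differed by 1.5-fold between SMARCA4-KD1 and SMARCA4-KD2, beside 6.59% of all genes. Their log2 difference (SMARCA4-KD1 minus SMARCA4-KD2) ran from -0.07 for HES4 to 0.16 for NRARP. Its median size was 0.07, beside 0.13 over all genes. Both knockdown arrays shared a slide and a scan.

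**Figure D3:**
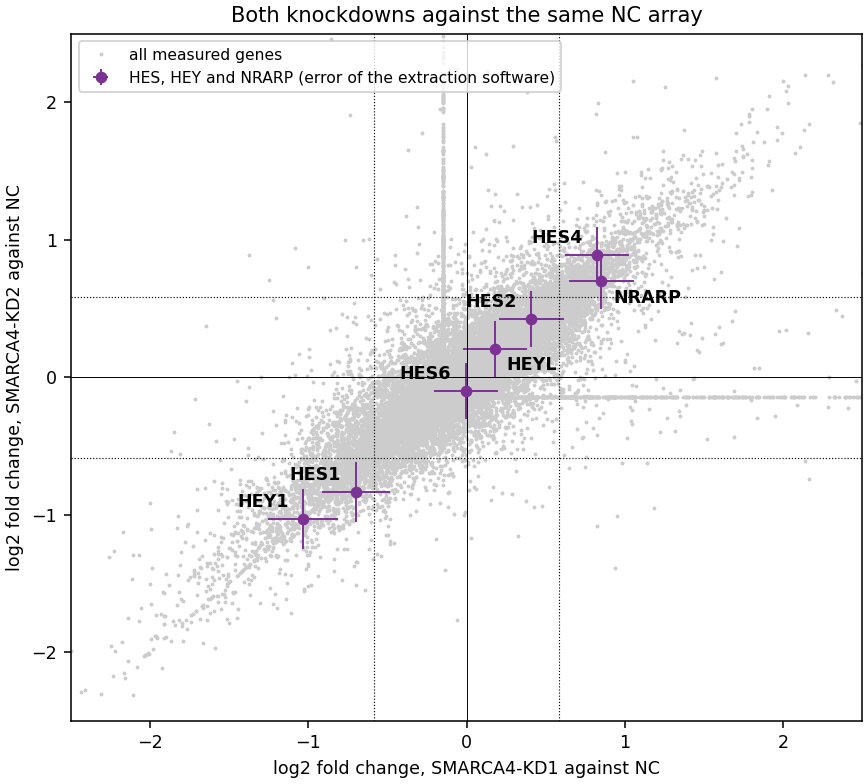
Log2 fold change against NC of SMARCA4-KD1 (x axis) and SMARCA4-KD2 (y axis) for all measured genes (grey; 128 lie outside the axes) and the 7 measured members (purple, with the extraction software's error); dotted lines mark 1.5-fold. HEY1 and HES1 lie in the lower left, HES4 and NRARP in the upper right; both axes share the NC array, and the straight grey lines are genes whose value was set to the floor on 2 arrays.

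A limma fit with both knockdowns as 1 arm against NC leaves 1 residual degree of freedom, and the spread of the lone NC array is assumed to be that between the knockdown arrays. Adjusted by Benjamini-Hochberg over all 22619 genes, it called 0% of them at an adjusted p of 0.05, and 7143 had an unadjusted p under 0.05. The adjusted p by limma was 0.068 for HES4, 0.070 for NRARP, 0.073 for HEY1, 0.093 for HES1, 0.097 for HES2, 0.262 for HEYL and 0.731 for HES6. The smallest adjusted p of any gene was 0.068. With the fit limited to the 19503 genes well above background on all 3 arrays, limma called 26.5% of genes, and 5 of the 7 members: HES4 (adjusted p = 0.0018), NRARP (0.0038), HEY1 (0.0086), HES1 (0.023) and HES2 (0.040). The members' calls in this test thus depend on which dim genes are fitted beside them, and neither fit separates the slide from the treatment.

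The values were also treated in 8 other ways, of which 4 changed the values of HES1, HEY1, HES4 and NRARP at all, since their probes were well above background on all arrays and each had 1 measured probe. HES4, NRARP and HEY1 were at least 1.5-fold apart from NC in both knockdowns in 4 of these 4, and HES1 in 3, the exception being normexp. The mean log2 fold change ran from 0.78 to 0.86 for HES4, from 0.72 to 0.77 for NRARP, from -1.08 to -0.70 for HEY1 and from -0.82 to -0.44 for HES1. For HES2 it fell to 0.12 when its 2 probes were averaged.

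**Figure D4:**
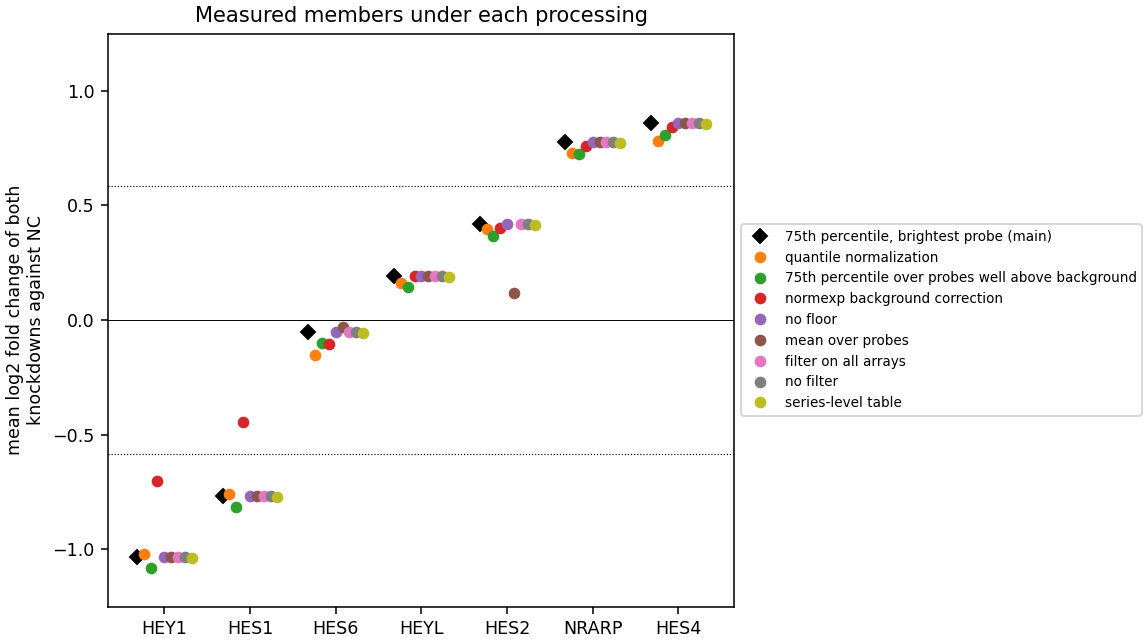
Mean log2 fold change of both knockdowns against NC (y axis) for each measured gene (x axis) under the reported processing (black diamond) and each of 8 others (coloured points); dotted lines mark 1.5-fold. HES4 and NRARP keep close to their reported value, while HEY1 and HES1 lie nearer 0 with normexp and HES2 nearer 0 with the mean over its probes.

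The rest of the Notch pathway was read from lists of 84 names in 12 groups by role, of which 83 were on the array (TLE5 is there under its older name AES). Of the 67 genes measured, 6 were at least 1.5-fold lower in both knockdowns and 3 higher, where 8.03% and 6.35% of all genes were, so that the counts lay near those of all genes. The median over the 67 genes, 0.0014 on the log2 scale for SMARCA4-KD1 and 0.010 for SMARCA4-KD2, was close to theirs. Most pathway genes thus lay within 1.5-fold of NC in at least 1 knockdown.

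Among the 4 receptors, NOTCH4 was lower, at a dim intensity of 73.5 in NC. It read 37.3 for SMARCA4-KD1 and 35.2 for SMARCA4-KD2 (log2 fold change -1.07 and -1.09). With normexp, whose offset shrinks differences at such dim intensities, NOTCH4 gave -0.55 and -0.52, under 1.5-fold. The other receptors did not reach 1.5-fold in either knockdown. Of the 5 ligands, 3 were measured and none reached 1.5-fold in both. Of 11 genes for receptor processing, 2 were higher. POFUT1, which adds O-fucose to Notch, read 246 in NC, then 475 and 384 (0.87 and 0.61), and NCSTN, the nicastrin subunit of gamma-secretase, read 3289, then 5434 and 5321 (0.64 and 0.66). LFNG, a Fringe enzyme that extends O-fucose and changes which ligands Notch answers to, was lower, at 987 in NC, then 565 and 492 (-0.89 and -1.04). A second LFNG probe gave -0.39 and 0.08, and with the mean over both LFNG was lower by 1.5-fold in SMARCA4-KD1 alone.

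In the nuclear complex, KAT2B, an acetyltransferase also called PCAF, was lower, at 191 in NC, then 77.4 and 86.5 (-1.39 and -1.18). The related KAT2A lay above NC, at 2074 in NC, then 3180 and 3378 (0.53 and 0.67), under 1.5-fold in SMARCA4-KD1. RBPJ itself, which read 9294, then 10266 and 8617, differed by 0.06 and -0.14. None of the 6 measured RBPJ corepressors or the 9 measured ubiquitin ligases and endocytic regulators reached 1.5-fold in both knockdowns. The same held for the 6 measured Groucho/TLE family genes. The genes that act on Notch and those of the Groucho/TLE family were thus mostly within 1.5-fold of NC.

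The largest mean log2 fold change in size among the measured pathway genes was that of BHLHE41, a bHLH-Orange repressor related to HES and HEY and known from the circadian clock, which read 444 in NC, 150 for SMARCA4-KD1 and 164 for SMARCA4-KD2 (-1.65 and -1.47). Its close relative BHLHE40 differed by -0.16 and -0.13. ID2, which lacks a basic region and sequesters bHLH partners, was lower, at 23924 in NC, then 11968 and 12108 (-1.09 and -1.01). The second ID2 probe gave -0.97 and -0.83, in the same direction. None of the 3 measured proneural and secretory bHLH genes reached 1.5-fold in both, and ATOH1, the secretory fate gene that HES1 is known to repress, was not well above background on any array.

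Of 8 measured genes among the other known Notch targets, 1 was lower and 1 higher in both knockdowns. CCND1, which encodes cyclin D1, was lower, at 4960 in NC, then 3206 and 2549 (-0.72 and -0.99), and CDKN1A, which encodes the cell cycle inhibitor p21, was higher, at 636 in NC, then 1410 and 1079 (1.06 and 0.73). Of the 3 genes that were higher, CDKN1A alone passed 1.5-fold in both with the percentile taken over probes well above background. NCSTN also lost the call with quantile normalization and POFUT1 with normexp. MYC was just under 1.5-fold in SMARCA4-KD2, at 22002 in NC, then 39942 and 33563 (0.77 and 0.58). With normexp MYC was higher by 1.5-fold in both knockdowns (0.80 and 0.61). Pathway genes not measured included ASCL2, ATOH1, DLL3, DLL4, DTX1, DTX3, HELT, HES3, HES5, ID4, KDM5A, MAML2, OLFM4, RBPJL and TCF4.

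**Figure D5:**
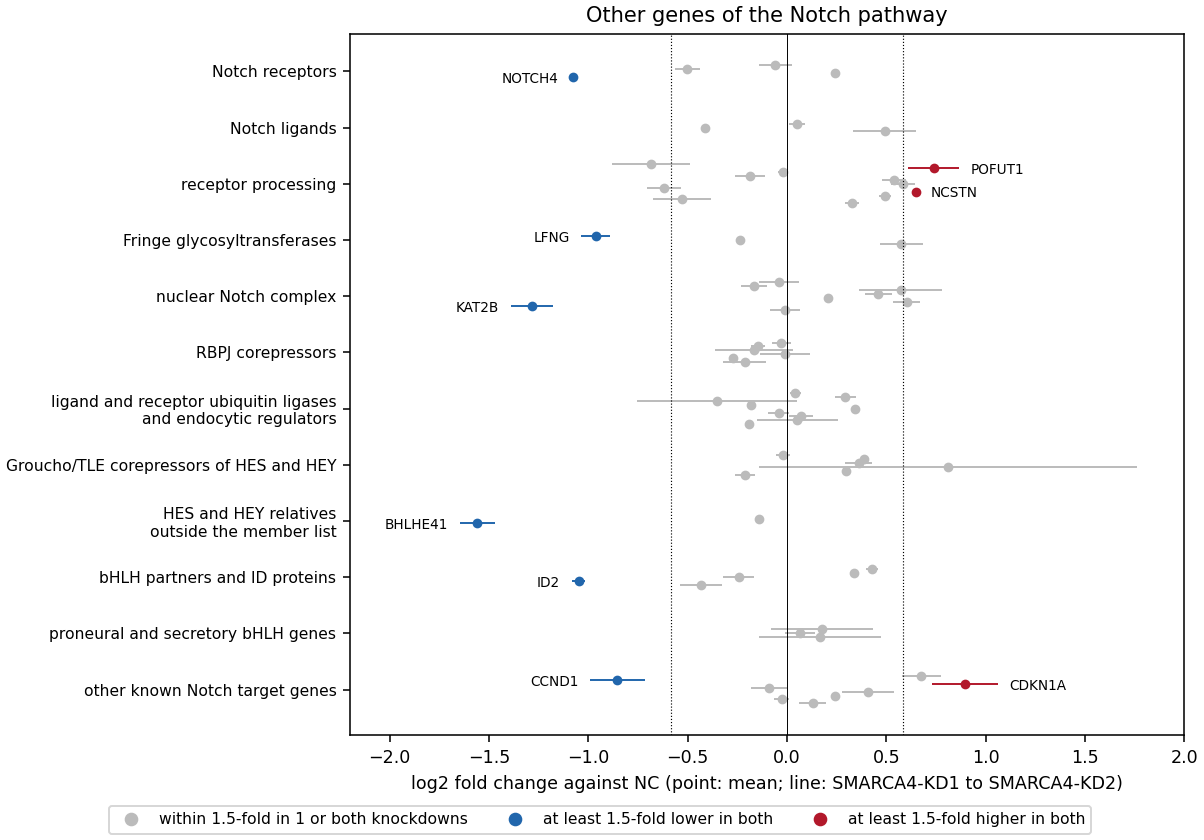
Log2 fold change against NC (x axis) of the measured genes of each pathway list (y axis); a point is the mean of both knockdowns and its line runs from SMARCA4-KD1 to SMARCA4-KD2, with dotted lines at 1.5-fold. The 6 blue genes were lower and the 3 red genes higher in both knockdowns, and most of the 67 lie within the dotted lines.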

How the data were processed

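Total RNA of HCT116 cells was hybridised to Agilent 1-colour (Cy3) arrays, 1 per group. The authors deposited scanner files with the intensity of each spot, extracted with Agilent Feature Extraction 10.7.1.1 (background subtraction and detrending, no normalization between arrays; positions hg19, as named in the files), and a table of the same processed intensities, used as an alternative. Each array had 62976 spots and 58201 non-control probes, of which 45.7% to 47.3% were well above background and 0 saturated. The number of arrays limits the precision.

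Control and outlier spots were left out and repeated spots averaged. From log2 of the processed intensity the array's 75th percentile was subtracted, values not well above background were raised to the lowest value well above it, and the brightest probe stood for a gene if well above background on at least 1 array (22619 genes). Differences of each knockdown from NC were counted at 1.5-fold, the fold of the study's methods, with no test, since 1 array against 1 allows none. The fit across genes used limma 3.58.1 in R 4.3.3 (eBayes with an intensity trend) and was run on simulated data. The simulation gave the NC array the spread between the knockdown arrays and held no slide or scan effect. It therefore cannot test the assumption made about the NC array. The error of a log2 fold change combines the software's errors of both spots. The alternatives were quantile normalization, the percentile over probes well above background, normexp (offset 50), no floor, the mean over probes, other filters, a 2-fold threshold and the deposited table.

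The 9 genes and all lists were chosen with earlier results of these data known. Named are all 9 genes, SMARCA4, PRMT1 and list genes at least 1.5-fold apart in the same direction in both knockdowns. A few list genes were added after their values were seen (RBPJ, KAT2A, BHLHE40 and MYC). The label's treatment field gave the knockdown number. Promoter windows came from RefSeq (GRCh38.p14). Other tools were Python 3.11.15, numpy 2.4.6, pandas 2.3.3 and matplotlib 3.10.9. Arrays of the PRMT1 knockdown and ChIP-seq were not used here. A siRNA sequence and 1 list gene are not reported here.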

Additional observations from a re-analysis of the deposited data

How the results depend on the processing

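With normexp, 1 member was lower in each knockdown and in both (HEY1), against 2, since HES1 had a mean log2 fold change of -0.44. At 2-fold, 1 member (HEY1) was lower and 0 were higher in each and in both, and 0 pathway genes were higher and 4 lower in both knockdowns. Without a filter, which adds HES7 and HEY2 at the floor, the members' median fell below 0, to -0.0037 for SMARCA4-KD1 and -0.098 for SMARCA4-KD2, beside -0.15 and -0.14 over all genes. Pathway genes higher in both numbered 1 with the percentile over probes well above background and 5 with no floor, against 3, and those lower in both numbered 5 with normexp (without NOTCH4) and with the mean over probes (without LFNG), against 6. The limma count rose from 0 to 5176 when limited to genes well above background on all arrays, where the median total degrees of freedom were 7.67 against 3.33, and was 7143 with unadjusted p. Of the counts, medians and SMARCA4 values under these alternatives 84 stayed close to the reported value and 16 moved. Of the members' own values 26 came out identical, 27 changed within the error and 3 moved (HES1, HEY1 at -0.70 with normexp, and HES2 at 0.12 with the mean over probes), and none turned direction.

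No paired analysis was possible because each group had 1 array. For the same reason no replicate could be left out. At an adjusted p under 0.05, the methods' t-test on the same values and limma with no intensity trend called 0 genes too. The p limit that the study's methods give for the arrays, with no adjustment stated, was not applied to this t-test. Signal over background limits the dim probes of HES1 and HEY1 and left HES7 and HEY2 unmeasured.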

Other observations

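Genes next to the members on the chromosome were read after the values of the members were known. HES4 lies between PERM1, which regulates muscle mitochondria and had log2 fold changes of 1.20 (SMARCA4-KD1) and 0.92 (SMARCA4-KD2), and the interferon-induced ISG15, which differed by -0.06 and -0.07. The neighbours of HES4 were thus 1 gene that was higher and 1 near NC. NRARP lies between TOR4A (0.53 and 0.44) and EXD3 (0.39 and 0.40), both above NC by less than 1.5-fold. Beside HEYL, which was within 1.5-fold, PABPC4, a cytoplasmic poly(A)-binding protein, was higher (0.98 and 0.85). PER1 (-0.61 and -0.44) and PER2 (-0.41 and -0.48), which lie beside HES7 and HES6, were below NC in both knockdowns. PER1 was so by 1.5-fold in SMARCA4-KD1 alone. The other measured neighbours of HES2, HES6, HES7 and HEY2 lay within 1.5-fold of NC on either side. The RefSeq entries next to HES1 and HEY1 had no measured probe under their names. They include a readthrough entry beside HEY1, whose component genes were not looked up.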
